A study of Mus musculus with 6 samples.

Results

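The cytosolic ribosomal protein genes of mouse were followed through colonies grown from bone marrow with and without Psip1. The members are the protein-coding genes whose symbols mark a protein of the small ribosomal subunit (Rps, Rpsa) or of the large one (Rpl, Rplp), without the ribosomal S6 kinases and without genes named as pseudogenes. This gave 83 of the 46983 genes counted, 32 of the small subunit and 51 of the large one. Of these, 80 passed the low-count filter and were tested, and Rpl10l, Rpl24 and Rpl39l did not pass it. Fau and Rpl36al encode ribosomal proteins too but their symbols fall outside the rule, and Rps4l is annotated as a transcribed pseudogene.

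Lineage-depleted bone marrow cells of C57BL/6 mice, 8 to 11 weeks old by the sample labels, were plated in methylcellulose that contained stem cell factor, IL-3 and IL-6, and the colonies were collected after 6 to 7 days for sequencing of polyadenylated RNA. The 6 samples form 2 groups of 3, with replicates written below as WT1 to WT3 and KO1 to KO3. The WT group is labelled wild type, and the series design calls the same mice Psip Fl/Fl, that is, with both Psip1 copies floxed, so that these controls carry the engineered allele without the deletion. The KO group is labelled Psip1-KO, and the design gives its genotype as Psip Vav/Vav; the Vav promoter is commonly used to drive Cre in blood cells. Psip1 encodes LEDGF, a chromatin reader that tethers the menin and MLL complex, and the series title asks whether it is needed for blood formation. The labels give neither the number of mice per sample nor whether replicates were separate cultures, so p-values measure only the spread between these samples, which may be technical.

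A cytosolic ribosome carries about as many different proteins as there are members here, each in a single copy apart from the acidic stalk proteins. Their genes are therefore expressed together, and many of their mRNAs begin with a run of pyrimidines, the TOP element, through which mTOR and the RNA-binding protein LARP1 set their translation. In blood formation these genes are known through Diamond-Blackfan anaemia, in which loss of 1 copy of a ribosomal protein gene such as RPS19, RPL5 or RPL11 blocks red cell production. Mammalian genomes also hold many processed pseudogenes of these genes, which are reverse-transcribed copies of the mRNAs inserted elsewhere.

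Only reads that map to a single place were counted, so a read that fits a gene and its copy equally well is missing from both. The following coding stretches of GENCODE transcripts (GRCm38), 60 bases each, are shown because they span the range met among the members. Bases in capitals differ between the 2 sequences of a pair. Positions count from the first base of the start codon. Rpsa (chr9:120127689-120132369, plus strand) encodes the small-subunit protein also known as the laminin receptor, and the pseudogene Rpsa-ps10 (chr3:150072658-150073542, minus strand) differs from its 885 coding bases at 6 positions, 1 of them in coding bases 1 to 60:
Rpsa: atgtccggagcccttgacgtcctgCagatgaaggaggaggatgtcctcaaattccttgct
Rpsa-ps10: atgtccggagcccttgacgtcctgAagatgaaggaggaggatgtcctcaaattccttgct
Rps28 (chr17:33819027-33824562, minus strand) encodes a small-subunit protein near the mRNA exit, and the pseudogene Gm10263 (chr13:73317844-73318143, plus strand) differs from its 207 coding bases at 1 position, which lies in coding bases 121 to 180:
Rps28: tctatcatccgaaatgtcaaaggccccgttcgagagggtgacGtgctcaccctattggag
Gm10263: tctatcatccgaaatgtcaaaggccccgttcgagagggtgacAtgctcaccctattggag
Rps6 (chr4:86854660-86857412, minus strand) encodes the small-subunit protein phosphorylated by the S6 kinases, and the pseudogene Rps6-ps4 (chr2:75191073-75191822, minus strand) matched all 747 of its coding bases, here coding bases 1 to 60:
Rps6: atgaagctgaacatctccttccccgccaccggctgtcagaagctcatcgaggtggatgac
Rps6-ps4: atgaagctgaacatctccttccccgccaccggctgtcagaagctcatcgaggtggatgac
Rps27 (chr3:90212522-90213651, minus strand) and its paralog Rps27l (chr9:66946086-66949516, plus strand) encode near-identical proteins from coding sequences that match at 76.2% of bases, with 18 differences in coding bases 1 to 60:
Rps27: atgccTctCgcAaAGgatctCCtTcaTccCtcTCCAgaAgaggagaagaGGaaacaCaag
Rps27l: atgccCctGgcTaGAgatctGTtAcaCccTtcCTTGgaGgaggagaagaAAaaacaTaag

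The RefSeq start sites of GRCm38.p6 were searched for short pyrimidine runs, since the members share translational control through the start of their mRNAs. Of the 83 members, 63 were matched by symbol. In the 30 bases centred on the start, the sense strand held CTTTC in 17 of them (27.0%, against 4.76% of 27025 genes), and CTTCC in 13 (20.6%, against 7.83%). The run CTCTT was also found in 13 (20.6%, against 4.68%). These runs can overlap, and 28 members (44.4%) held at least 1 of the 3, against 15.0% of all genes. On the opposite strand CTTTC stood in 4.76% of the members (4.21% of all genes), the run CTTCC in 14.3% (8.54%) and the run CTCTT in 1.59% (4.99%). The start windows of Rps6 (chr4:86857353-86857382, minus strand), with its match in capitals, and of Rpl7l1 (chr17:46782642-46782671, minus strand), the paralog of Rpl7 that works in ribosome assembly, with no match, are shown as an example of each kind:
Rps6: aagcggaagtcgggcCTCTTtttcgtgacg
Rpl7l1: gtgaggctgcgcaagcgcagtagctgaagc
The motif TTCCGG, a core of sites for ETS factors, was searched in 300 bases that lie mostly upstream of the start. It stood in 25.4% of the 63 members on the sense strand and in 36.5% on the other. The shares over all genes were 9.83% and 9.33%.

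Depth was uneven: the 3 KO libraries and WT1 and WT2 held 7056614 to 15569088 gene reads and are called deep here, while WT3 held 27909 over its 2 runs. There 1 read equals 29.9 CPM (counts per 1000000 reads of effective library size), 26 of the 83 members had no read, and the limit behind such a 0 is 3 reads or 89.6 CPM, so this library is reported in reads. Psip1 itself was counted at 89.3 and 70.0 CPM in WT1 and WT2 and at 3 reads in WT3, against 14.8, 17.6 and 16.3 CPM in KO1, KO2 and KO3, so the labels hold for the deep libraries. Myeloid markers dominated the colonies and 2 of the 4 lymphoid markers, Cd3e and Cd3g, had no read in any library.

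No ribosomal protein gene passed the test between KO and WT. With edgeR's quasi-likelihood test and Benjamini-Hochberg adjustment over all 12292 tested genes, 0 of the 80 members had an adjusted p under 0.05, and 0 of 12292 genes did (0%). At an unadjusted p under 0.05 stood 0 members, against 178 of all genes (1.45%), of which 152 (1.24%) had a fitted rise in KO and 26 (0.212%) a fitted fall. DESeq2 and limma-voom called 0 members as well, likewise with 0 at an unadjusted p under 0.05. The fitted log2 fold change was above 0 for 46 members and below 0 for 34, with a median of 0.09 against 0.01 over all tested genes. It was within 0.5 of 0 on the log2 scale for 71 members and ran from -0.61, in Rplp1, to 0.75. Standard errors lay between 0.31 and 0.72 on the same scale, so a shift of the size of most of these values could not have been detected. The sign of the median rested on single libraries: it was -0.24 without WT1 and -0.25 without KO2, and 0.61 without WT2.

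**Figure D1:**
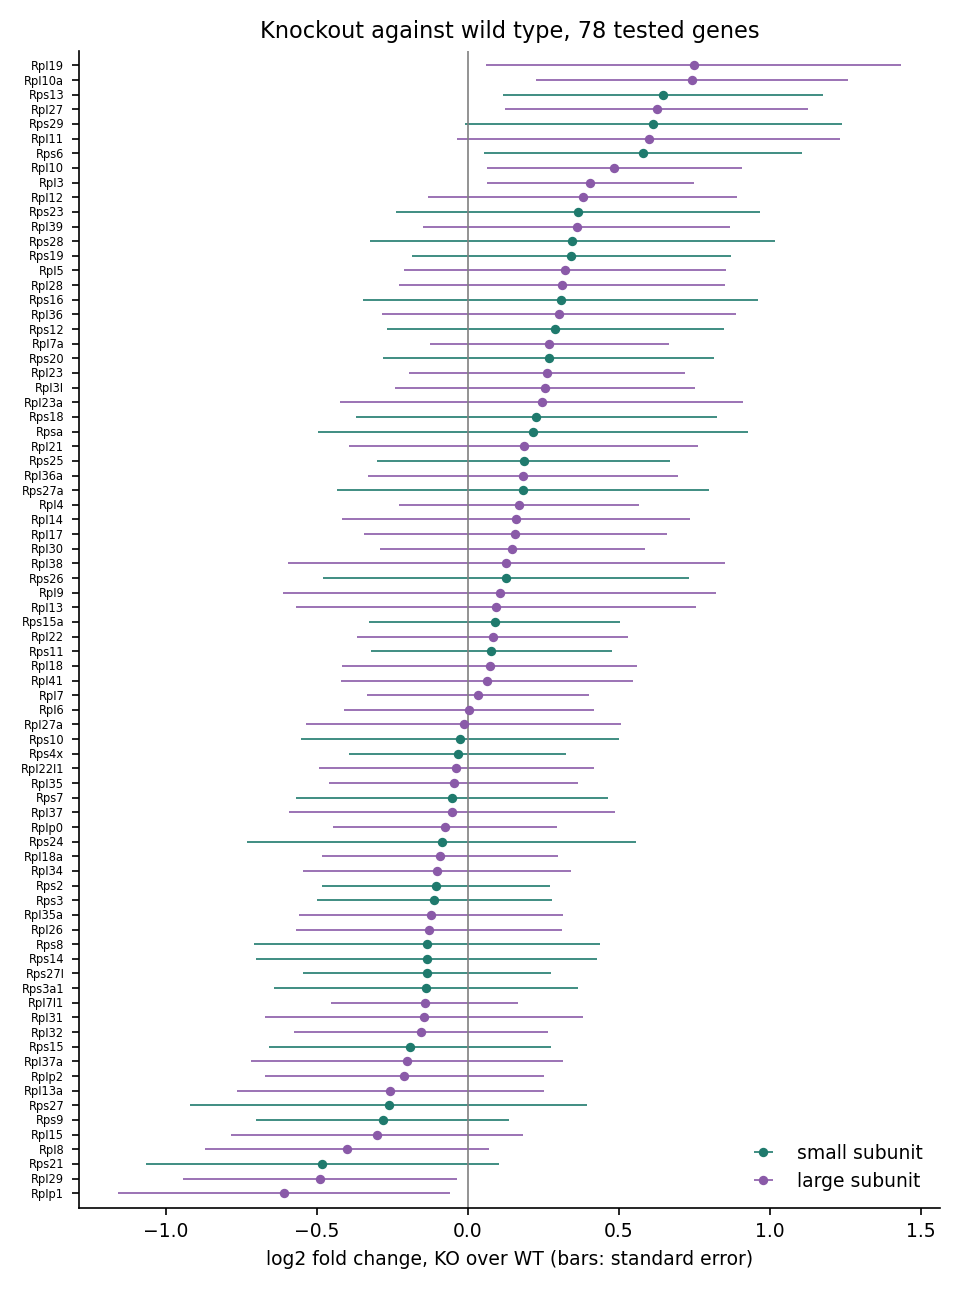
Fitted log2 fold change of KO over WT (horizontal axis) for 78 of the 80 tested ribosomal protein genes (vertical axis, ordered by value), with bars for the standard error and colours for the subunit. Values run from -0.61 to 0.75 and no gene passed the test. Genes of the small and large subunit are mixed along the order.

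Over the 5 deep libraries the groups did not overlap for 2 of the 80 members, 1 higher and 1 lower in KO, where 8.66% of all tested genes had no overlap (4.79% higher and 3.87% lower in KO). WT3 is too shallow to place beside them. Rps6 was counted at 1.96 and 2.15 CPM in WT1 and WT2 and at 2.60, 4.27 and 2.38 CPM in KO1, KO2 and KO3, with 0 reads in WT3. These levels come from 22 to 36 reads per deep library, although Rps6 encodes a protein present in every small subunit. Its log2 fold change was 0.58 ± 0.53 (SE; adjusted p = 1 by edgeR). Rpl7l1 lay on the other side, at 125 and 124 CPM in WT1 and WT2, 4 reads in WT3, and 119, 114 and 103 CPM in the KO libraries. The gap between the groups was small beside the spread, with a log2 fold change of -0.14 ± 0.31 (SE; adjusted p = 1 by edgeR).

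The 3 stalk proteins recruit translation factors to the large subunit, and all 3 had a fitted value below 0 with none past the test. Rplp1 was at 283 and 934 CPM in WT1 and WT2, at 54 reads in WT3, and at 606, 749 and 407 CPM in KO1, KO2 and KO3. All KO values fell between those of the deep WT libraries, which differed more than 3-fold. Its log2 fold change of -0.61 ± 0.55 (SE; adjusted p = 1 by edgeR) was the lowest of all members and came to -0.05 without WT3. Rplp0, which anchors the stalk, was at 424 and 832 CPM in WT1 and WT2, 19 reads in WT3, and 699, 536 and 506 CPM in KO (log2 fold change -0.08 ± 0.37, SE). Rplp2 had a log2 fold change of -0.21.

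Rpl5 and Rpl11 bind 5S rRNA in the large subunit and, when free, the p53 inhibitor MDM2. Rpl5 was at 9.80 and 24.6 CPM in WT1 and WT2, 1 read in WT3, and 21.3, 34.2 and 10.9 CPM in KO1, KO2 and KO3. Rpl11 showed the same order, at 5.88 and 13.8 CPM and 1 read in WT and at 12.3, 29.0 and 6.27 CPM in KO. WT1 and KO3 were low for both genes and KO2 was high. The log2 fold changes were 0.32 ± 0.53 and 0.60 ± 0.63 (SE), and each fell below 0 without KO2, at -0.14 and -0.18. Rps19, the gene most often mutated in Diamond-Blackfan anaemia, was at 86.4 and 158 CPM in WT1 and WT2, 11 reads in WT3, and 232, 266 and 93.1 CPM in KO, a log2 fold change of 0.34 ± 0.53 (SE). Of the 21 members known as genes of this anaemia, 0 passed the test, 12 had a fitted value above 0 and 9 below, with a median of 0.09.

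Among the members, the lowest p of a fitted rise belonged to Rpl10a, a large-subunit protein of the L1 stalk, at 28.3 and 49.2 CPM in WT1 and WT2, 2 reads in WT3, and 58.5, 114 and 28.5 CPM in KO1, KO2 and KO3. The highest value was again KO2, and KO3 lay level with WT1. Its log2 fold change was 0.74 ± 0.52 (SE; adjusted p = 1 by edgeR) and 0.12 without KO2. Rpl27, another large-subunit protein, ran from 6.46 to 13.8 CPM in the deep WT libraries and from 8.97 to 21.2 CPM in KO, with 0 reads in WT3 and a log2 fold change of 0.62. For Rps13, a small-subunit protein, 4 of the deep libraries lay between 7.79 and 8.71 CPM and KO2 stood apart at 23.1 CPM. Its log2 fold change of 0.65 turned to -0.03 without that library. Rpl3, which helps build the peptidyl transferase centre, was at 40.1 and 58.0 CPM in WT and 68.3, 78.0 and 51.7 CPM in KO, with 2 reads in WT3 and a log2 fold change of 0.41 ± 0.34 (SE). Rpl10, which joins the large subunit last, had a log2 fold change of 0.49 and is described with the library differences.

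On the other side of 0, Rpl29, a large-subunit protein, was at 17.0 and 43.0 CPM in WT1 and WT2, 2 reads in WT3, and 29.8, 20.6 and 17.1 CPM in KO. Its log2 fold change was -0.49 ± 0.46 (SE; adjusted p = 1 by edgeR) and 0.20 without WT2. Rpl8, a large-subunit protein and one of the 3 members with the highest mean CPM, was at 457 and 1309 CPM in WT and 903, 909 and 521 CPM in KO, with 46 reads in WT3 and a log2 fold change of -0.40. The small-subunit genes Rps21 and Rps9 had log2 fold changes of -0.48 and -0.28. In Rps21 WT1 stood at 69.7 CPM and WT2 at 230 CPM, with KO libraries between 72.2 and 190 CPM. In Rps9 they stood at 361 and 906 CPM against 673, 536 and 371 CPM. In each of these 4 genes WT2 was the highest deep library and WT1 the lowest.

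The members' share of reads spread more between libraries of 1 genotype than between the group means. Of all gene reads, the members took 0.662% in WT1, 1.62% in WT2 and 1.90% in WT3, and 1.31%, 1.31% and 0.743% in KO1, KO2 and KO3. The 95% Wilson interval in WT3 was 1.75% to 2.07%; intervals cover counting error only. WT1 and KO3 were low and the other 4 libraries high, so that each genotype held a low library. The group means were 1.40% ± 0.650 in WT and 1.12% ± 0.327 in KO (SD, n = 3 each), a difference of -0.275 percentage points that was smaller than the SD of WT. Without WT3 the difference was -0.0216, and with mitochondrial reads left out as well it turned to 0.0566. Both subunits were low in WT1 and KO3, and large-subunit reads were 1.33 ± 0.0687 times small-subunit reads in WT and 1.33 ± 0.0855 times in KO (SD, n = 3 each). The ratio was higher in the low libraries, at 1.40 in WT1 and 1.43 in KO3. It was 1.31 in WT2, 1.27 in WT3, 1.31 in KO1 and 1.26 in KO2.

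**Figure D2:**
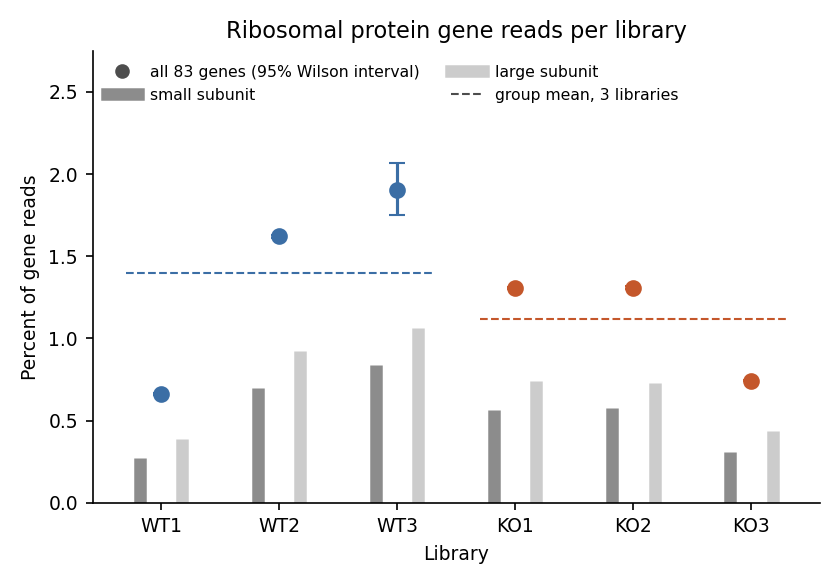
Percent of gene reads (vertical axis) that fell on the 83 ribosomal protein genes in each of the 6 libraries, as points with 95% Wilson intervals, with grey bars for the small and large subunit and dashed lines for the group means. WT1 at 0.662% and KO3 at 0.743% lie below the other 4 libraries, which lie between 1.31% and 1.90%.

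The shift between libraries ran through nearly all members. Over the 61 members with at least 100 reads in every deep library, 59 were higher in WT2 than in WT1, against 49.4% of the 7861 genes tested at the same depth, and the median log2 ratio was 1.21 against -0.01. Between KO1 and KO3, 60 of the 61 were higher in KO1, against 48.1% of all genes, with a median log2 ratio of 0.84. In 58 of the 61 members (95.1%) WT2 exceeded WT1 and KO1 and KO2 both exceeded KO3, a pattern found in 31.3% of all genes. Rps26, which contacts the mRNA upstream of the start codon, had the largest ratio of WT2 to WT1 among the 61, at 70.7 and 309 CPM in WT and 193, 355 and 86.8 CPM in KO, with WT2 at 4.37 times WT1. These are counts relative to all gene reads of bulk colonies, in which fewer cells of a type and less RNA per cell cannot be told apart.

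Cell type markers and mapping were read in the same libraries, whether or not they followed the members' share. The summed level of 5 myeloid progenitor and neutrophil markers was 2054 and 9017 CPM in WT1 and WT2 and 6858, 2063 and 1737 CPM in KO1, KO2 and KO3, all 5 being read in each deep library. The 5 monocyte and macrophage markers, of which Ly86 had no read in any library, summed to 11766 and 4512 CPM in WT and 6973, 3890 and 11497 CPM in KO, most of it Lyz2 with 10826 and 4140 CPM in WT and 6500, 3233 and 10489 CPM in KO. Cd68 and C1qa in the same list did not follow that order, with Cd68 at 453 CPM in WT1 and 486 CPM in KO2 and C1qa highest in WT2, at 9.60 CPM. The 6 mast cell and basophil markers, all read in each deep library, summed to 4769 and 3441 CPM in WT and 2674, 8650 and 3903 CPM in KO. The 3 megakaryocyte markers summed to 328 and 552 CPM in WT and 544, 804 and 259 CPM in KO and were lowest in WT1 and KO3, as the members were. The 7 erythroid markers summed to 46.3 and 149 CPM in WT and 44.1, 139 and 19.7 CPM in KO. The 4 stromal markers summed to 137 and 248 CPM in WT and 161, 191 and 131 CPM in KO, most of it Pecam1. Their sum was also lowest in WT1 and KO3, as were Pecam1 and Col1a1. Col1a2 and Cdh5, with few reads, did not follow that order, at 0.79 and 0.53 CPM in KO3. The sum of the 4 lymphoid markers was lowest in WT1 and KO3 too, but from at most 3 reads per gene. It was 0.0726 and 0.294 CPM in WT and 0.157, 0.316 and 0.132 CPM in KO. Reads mapping to several places made up 14.4%, 19.2% and 23.0% of all reads in WT1, WT2 and WT3 and 17.7%, 27.0% and 15.0% in KO1, KO2 and KO3, and were lowest in the same WT1 and KO3. Xist, the RNA of the inactive X chromosome, was at 579 CPM in WT2 and 952 CPM in KO1 and at 0.158 CPM or less in the other deep libraries, where the Y-linked Eif2s3y was at 75.5 to 137 CPM against 0 reads in WT2 and KO1. The labels give no sex, and WT2 over WT1 and KO1 over KO3 each set a library with Xist against one without. Among the members Rpl10, Rps4x, Rpl39 and Rpl36a lie on the X chromosome. Rpl10 was lower in WT2 than in WT1 and lower in KO1 than in KO3, at 0.646 and 0.776 times. Rps4x (1.46 and 1.27 times), Rpl39 (2.32 and 2.21 times) and Rpl36a (1.97 and 1.33 times) were higher in both comparisons. KO2 and KO3, both at 0.158 CPM of Xist or less, differed as well. There 60 of the 61 members were higher in KO2 (46.0% of all genes), with a median log2 ratio of 1.12. The part of cell types, sex and mapping in the members' share was not tested.

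**Figure D3:**
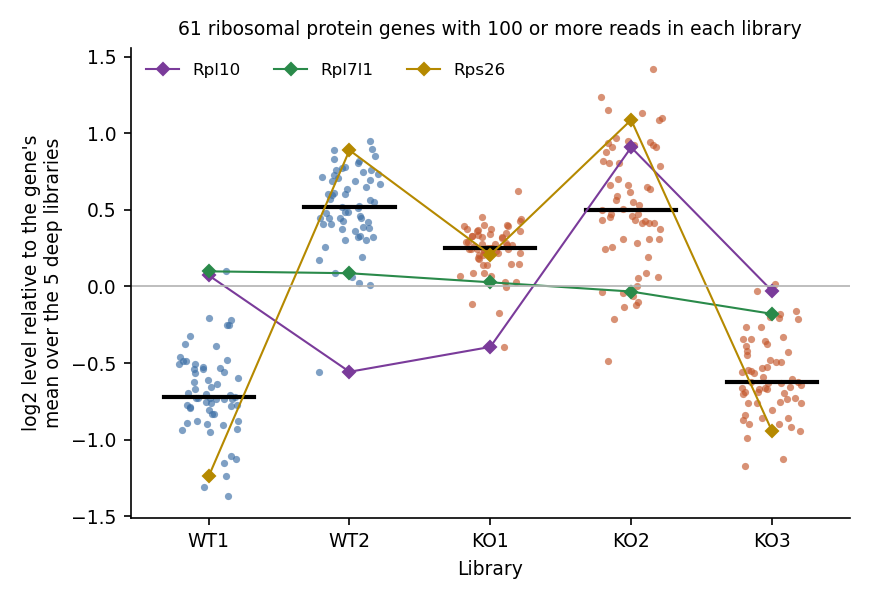
Level of each of 61 ribosomal protein genes in each of the 5 deep libraries (horizontal axis), as log2 CPM relative to that gene's mean over these libraries (vertical axis), with black lines for the median and 3 genes joined by lines. The medians are -0.72 in WT1, 0.52 in WT2, 0.25 in KO1, 0.50 in KO2 and -0.62 in KO3. Rpl10 and Rpl7l1 depart from the common course, which Rps26 follows.

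A few members left this common course or spread widely in their share of the members' reads. Rpl10 was at 43.2 and 27.9 CPM in WT1 and WT2 and at 31.2, 77.0 and 40.2 CPM in KO1, KO2 and KO3. It was lower in WT2 than in WT1, at 0.646 times, and 2.47 times higher in KO2 than in KO1. Its share of the members' reads spread the most, with a standard deviation of log2 share of 0.83 over the deep libraries, against a median of 0.28 over the 61 members. Rps28 came next with 0.61, at 17.3 and 42.0 CPM in WT and 31.5, 80.5 and 13.4 CPM in KO. Like most members it was lowest in WT1 and KO3. With the reads of its copy Gm10263 added, it came to 17.3 and 80.9 CPM in WT1 and WT2. The sums in KO1, KO2 and KO3 were 63.8, 80.5 and 29.8 CPM. Rps4x, the X-linked gene of a small-subunit protein, followed with 0.59 and was lowest in KO2, at 77.8 CPM against 94.0 to 140 CPM in the other 4 deep libraries. Rpl7l1 stayed level, between 103 and 125 CPM. Despite these departures, the ranks of the 83 members correlated between any pair of deep libraries with a Spearman coefficient from 0.96 to 0.99 (a description over genes, which are not independent replicates).

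The members' counted levels differed widely. Per kilobase of the principal transcript and averaged over the deep libraries, Rplp1 reached 1194 CPM and Rpl8 804, while Rps6 stood at 3.04, Rps29 at 2.98 and Rpl23a at 2.81. Rps29 and Rpl23a, with Rps6, were the tested members of lowest mean CPM. The counted level went with the share of the coding sequence found elsewhere. For each member, every stretch of 50 coding bases was looked up in the transcripts of all other genes that do not overlap it. The median member shared 90.1% of its stretches. All stretches were shared in 29 members, including Rps6, Rps28, Rpl10, Rps29 and Rpl23a, while Rpl3l and Rpl39l shared none. In all, 1097 annotated pseudogenes held at least 1 such stretch, and Rpl7a, a large-subunit protein, met 120 of them.

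The 16 members sharing under 50% of their stretches had a median of 401 CPM per kilobase, the 25 at 50% to under 90% a median of 135, the 13 at 90% to under 100% a median of 40.6 and the 29 at 100% a median of 10.2. Over the 83 members the Spearman coefficient between shared percent and level per length was -0.67, and -0.86 over 80 without the tissue-restricted paralogs Rpl3l, Rpl10l and Rpl39l. It was -0.64 with stretches of 75 bases and -0.65 with 36. These coefficients describe genes of the same libraries and have no test. They also depend on the transcript chosen. It was long for some members, at 5179 bases for Rps15a and 3706 for Rps20, with coding parts of 390 and 357 bases. This lowers the level per kilobase of such members. Of the 29 wholly shared members, 28 had fewer than 1000 reads in KO1. The exception, Rpl41, had 1975 reads in KO1. Its coding sequence has 75 bases in a transcript of 582, and 43.9% of the stretches of the whole transcript were shared. That percentage did not set it apart, since among the 28 it was 26.2% in Rpl21 and 98.6% in Rps27. Why Rpl41 stood apart was not tested. The 29 took 4.06% to 5.86% of the members' reads in the deep libraries, against 48.7% to 54.6% for the 16 least shared. Since only uniquely mapping reads were counted, the level of a wholly shared gene describes that part of its mRNA and not the mRNA as a whole. Whether sharing accounts for the low levels was not tested.

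**Figure D4:**
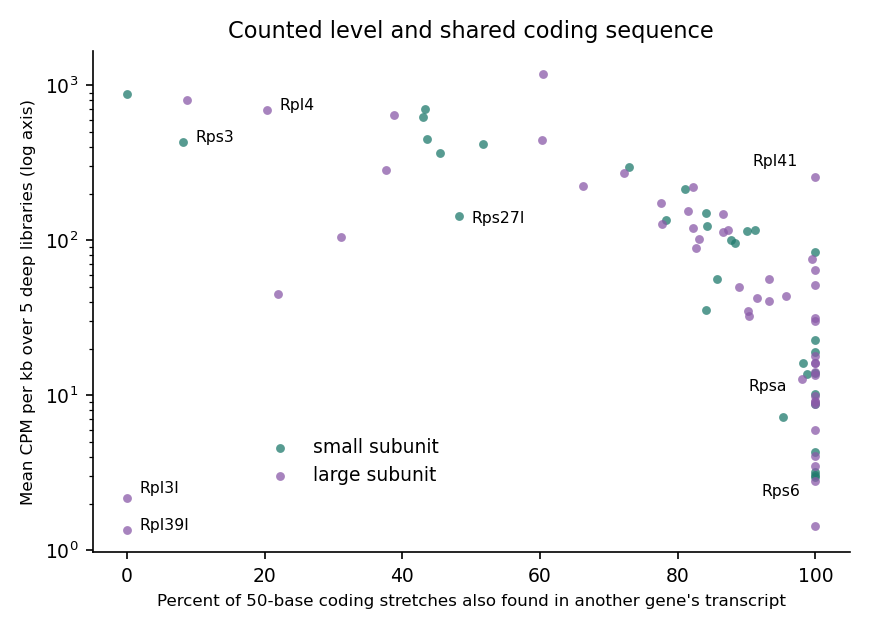
Mean CPM per kilobase of the principal transcript over the 5 deep libraries (vertical axis, log scale) against the percent of 50-base coding stretches found in transcripts of other genes (horizontal axis), 1 point per ribosomal protein gene, coloured by subunit. Levels fall from a median of 401 below 50% to a median of 10.2 at 100%. Rpl10l, with no read, is not drawn.

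The fitted fold changes went with the same measure. For members that were tested, the median of the log2 fold changes was -0.14 below 50% shared (4 above 0, 10 below), -0.05 at 50% to under 90% (10 above, 15 below), 0.07 at 90% to under 100% (8 above, 5 below) and 0.30 at 100% (24 above, 4 below). The Spearman coefficient over the 80 was 0.57. It was 0.28 with limma-voom, 0.32 with DESeq2, 0.29 with the second run alone standing for WT3 and 0.37 without WT1. It was lowest without KO2, where the medians were -0.27, -0.30, -0.19 and -0.19, the coefficient 0.16, and 7 of the 28 wholly shared members lay above 0. Without WT3 the order remained, with medians of -0.06, 0.04, 0.12 and 0.32. With the second run alone standing for WT3, the least shared members had a median of 0.15. Between KO2 and KO1, libraries of the same genotype, members with enough reads had median log2 ratios of 0.17, 0.31, 0.02 and 0.68 from the least to the wholly shared, so the third group broke the order. KO2 was also the library with the highest share of reads mapping to several places, 27.0%, and the highest share of mitochondrial reads, 15.7% against 1.26% to 1.84% in the other deep libraries, and the part of either in the order was not tested.

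Pseudogene copies of the members were read in some libraries and not in others. Of the pseudogenes that share a stretch with a member, 6 reached 100 reads in a deep library and 4 of these were at 5 reads or fewer in another. Rpsa-ps10 had 752 reads in WT1, 8 in WT2, 0 in WT3 and 3, 0 and 4 in KO1, KO2 and KO3. Rpsa itself had 91, 442 and 0 reads in WT and 340, 287 and 168 in KO, so that WT1, the only library with many reads on the copy, was the deep library with the fewest on the gene. Added together they came to 843 reads in WT1 against 450, 343, 287 and 172 in WT2 and KO1, KO2 and KO3. The log2 fold change of Rpsa was 0.21 ± 0.71 (SE) by itself and -0.78 with its named pseudogenes added, with no call in either.

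Rps24-ps3, a copy on chromosome X of the small-subunit gene Rps24, likewise had 230 reads in WT1 and 5 to 8 in the other deep libraries. Gm10263, the Rps28 copy shown above, had 397 reads in WT2, 410 in KO1 and 249 in KO3, and 0 in WT1 and WT3 and KO2. Gm15772 (chr5:3236431-3236868, plus strand), a copy of the large-subunit gene Rpl26, had 288, 350 and 135 reads in WT2 and KO1 and KO2 and 1, 0 and 0 in WT1 and WT3 and KO3. Gm10263 and Gm15772 were thus read in libraries of both genotypes, and the other two mainly in the single library WT1. In all, 851 of the pseudogenes were counted in the files, and together they held 0.0112% to 0.0241% of gene reads in the deep libraries. The counts of 271 pseudogenes named after a member with the suffix -ps were also added to their genes. With these, 0 of the 80 tested members were called and the median log2 fold change was 0.08. Copies with other names, Gm10263 and Gm15772 among them, were not added.

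**Figure D5:**
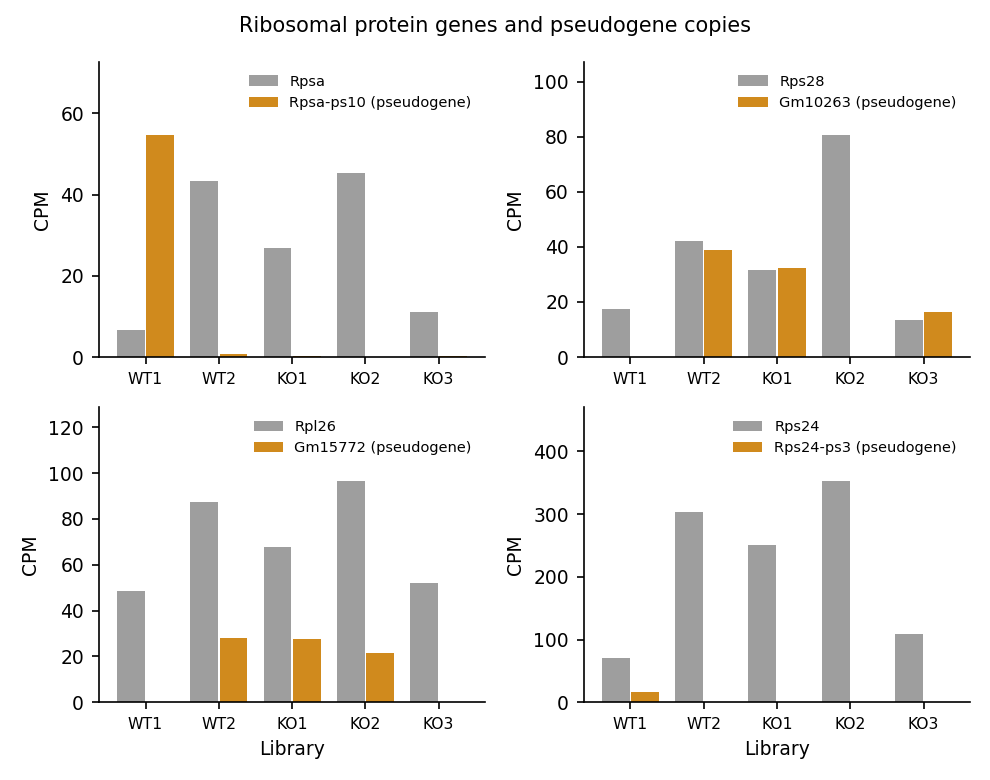
CPM (vertical axes, linear) of 4 ribosomal protein genes in grey and of a pseudogene copy of each in orange, in the 5 deep libraries (horizontal axes). Rpsa-ps10 and Rps24-ps3 were read mainly in WT1, Gm10263 in WT2, KO1 and KO3, and Gm15772 in WT2, KO1 and KO2.

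Ratios between paralogs differed little between the groups. Rpl22 and Rpl22l1 encode paralogous proteins of the large subunit. Rpl22l1 had 0.243 and 0.242 reads per read of Rpl22 in WT1 and WT2 and 0.240, 0.208 and 0.225 in KO1, KO2 and KO3, with 3 and 9 reads in WT3. The KO ratios lay just below the deep WT ones, KO1 by the least, and this difference was not tested. How often the ratios of other gene pairs separate in this way was not computed. The log2 fold changes were -0.04 ± 0.46 and 0.08 ± 0.45 (SE). Rps27l, a p53 target in other cells, had 25.2 and 20.4 times the reads of Rps27 in the deep WT libraries and 27.4, 21.0 and 27.1 times in KO. Rps27 was wholly shared with other transcripts, at 1.91 to 4.43 CPM, and Rps27l shared 48.3% of its stretches, at 51.9 to 93.2 CPM, so this ratio compares the uniquely mapping parts only. Rpl7l1 had 0.815 and 0.464 reads per read of Rpl7 in WT and 0.496, 0.600 and 0.624 in KO. The muscle paralog Rpl3l was at 2.35 to 3.80 CPM in the deep libraries, the testis paralog Rpl39l at 0 to 4.11 CPM and highest in KO2, and the testis paralog Rpl10l had no read in any library.

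Genes of related processes gave no call between KO and WT either, with 0 genes past the edgeR threshold in each list. Of the 77 tested proteins of the mitochondrial ribosome, 27 had a fitted value above 0 and 50 below (median -0.05 on the log2 scale), and 68 of the 71 with enough reads were higher in WT2 than in WT1. The lowest p values belonged to Mrps6 (0.44 ± 0.42, SE) and Mrps36 (-0.73 ± 0.54, SE). The 18 other mRNAs with TOP starts, among them the elongation factors, had a median of 0.04, and 14 of 18 were higher in WT2 than in WT1. The 8 snoRNA host genes with TOP starts had a median of 0.20, and all 6 with enough reads followed the libraries as the members did, with a median log2 ratio of 1.32 between WT2 and WT1. The 11 genes of mTOR and LARP1 control had a median of 0.00, and the 10 tested genes of the p53 response a median of 0.07, with Cdkn1a, the p53 target that stops the cell cycle, at 0.20 ± 0.33 (SE). In these 2 lists the library shift ran the other way, with 2 of 11 and 1 of 9 genes higher in WT2. The 6 chaperones that carry single ribosomal proteins to the assembly site had a median of -0.05. Rps27rt, a copy of Rps27 annotated as protein-coding, was read at 0.07 and 0.78 CPM in WT1 and WT2 and 1.18, 1.58 and 1.12 CPM in the KO libraries. Its fitted change was 1.63 ± 0.79 on the log2 scale (SE; adjusted p = 1 by edgeR), from at most 17 reads in any library.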

How the data were processed

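Per the labels' protocols, the TruSeq Stranded mRNA kit was used on polyadenylated RNA, and per the series design the sequencer was a HiSeq 2500. The 7 deposited files, 1 per run, give counts of uniquely mapped reads per gene in STAR's layout. Per the submitters' processing notes the tools were STAR 2.5.1b and DESeq2 and the build GRCm38; the annotation release and read length are not given in the sources used here. Column 4, the count for reads on the strand opposite to the gene, was used, as fits the kit. The 4 rows that name no gene held 25.6% to 47.8% of reads and were left out. The 2 runs of WT replicate 3, which held 27351 and 558 gene reads, were summed and counted as 1 sample. Titles gave each sample's genotype.

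Genes were matched by Ensembl ID to GENCODE release M21 (46488 of 46983; of the members, 49 by the same ID version and 34 by another). In edgeR 4.0.16, low counts were removed by filterByExpr, libraries scaled by TMM, and genotype alone fitted by glmQLFit (robust) and tested two-sided by glmQLFTest, at an adjusted p of 0.05. The standard error is the log2 fold change over the root of F. CPM use the effective library size. Levels per kilobase use the principal transcript, and shared stretches its coding part, searched on both strands. The code was checked on simulated counts. Alternatives used DESeq2 1.42.0, limma-voom 3.58.1, other scalings, no filter, unstranded counts, single runs, a replicate block, added pseudogene counts and 1 library left out at a time. The members and lists were chosen with earlier results of these data known.

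Named members were the 18 genes Rps19, Rpl5, Rpl11, Rps6, Rplp0, Rpsa, Rpl3, Rps3, Rpl3l, Rpl7l1, Rpl10l, Rpl22, Rpl22l1, Rpl39l, Rps4x, Rps4l, Rps27 and Rps27l, the 5 of lowest p per direction, the 3 of highest and the 3 of lowest mean CPM, and the 3 of widest spread in share; of each related list, the gene of lowest p per direction could be named. Rps3 and Rpl4, named by level, had 570 to 1145 and 733 to 1348 CPM in the deep libraries. All other genes and the pseudogenes were chosen after their values were seen. A few genes are not reported here by name.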

Additional observations from a re-analysis of the deposited data

How the results depend on the processing

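In all 18 alternatives 0 ribosomal protein genes were called. The count over all genes, 0 in the fit reported, was 2 with library size only, 9 with no low-count filter, 1 with DESeq2, 13 with the second run of WT replicate 3 only and 12 with DESeq2 without WT replicate 3, an alternative chosen after seeing the data; with 1 library left out it ran from 0 to 5. The fit with the replicate number as a replicate block called 13 genes and gave the members a median log2 fold change of 0.22. Deviations of same-numbered samples from their group means correlated at -0.29, -0.03 and -0.15, while WT1 with KO3, WT2 with KO1 and WT3 with KO2 gave 0.40, 0.26 and 0.13. These correlations cannot decide whether the numbers pair the samples, since the deviations of each gene sum to 0 within a group and WT3 is shallow. Under the other settings with all samples the members' median ran from 0.00 with library size only to 0.19 with the second run only, was -0.05 over members with a read in every library and -0.09 over those at or above the median level, and ran from -0.25 to 0.61 with 1 library left out. DESeq2 moved the median of all genes to -0.32, and the members' median there was 0.03. The difference in the members' percent of gene reads ran from -0.642 to -0.0216 with 1 library left out. Of 335 log2 fold changes of named members under the alternatives that keep all samples or change the tool, 21 took the other sign, and the cause was not tested: with the second run only, Rps21 0.015, Rps9 0.012, Rpl22l1 0.077, Rplp1 0.076, Rpl8 0.11, Rps27l 0.11, Rplp0 0.17 and Rps3 0.20; with DESeq2, Rpl23a -0.19, Rps29 -0.092 and Rps4x 0.0049; with limma-voom, Rpl23a -0.23, Rps27l 0.010 and Rpl22l1 0.050; with DESeq2 without WT replicate 3, Rpl22l1 0.029 and Rps27l 0.053; with library size only, Rpl22 -0.025; with no filter, Rps4x 0.0021; with the replicate block, Rpl22l1 0.12; unstranded, Rpl22l1 0.011; and with pseudogenes added, Rpsa -0.78. With 1 library left out, 27 of 168 values took the other sign, and the ranges of these genes were -0.18 to 1.25 for Rpl11, -0.24 to 0.51 for Rpl22, -0.45 to 0.55 for Rpl22l1, -0.51 to 0.70 for Rpl23a, -0.95 to 0.20 for Rpl29, -0.14 to 1.06 for Rpl5, -0.26 to 0.30 for Rplp0, -0.026 to 0.92 for Rps13, -0.023 to 0.72 for Rps19, -0.68 to 0.022 for Rps27, -0.38 to 0.089 for Rps27l, -0.57 to 0.95 for Rps28, -0.31 to 0.21 for Rps3, -0.25 to 0.25 for Rps4x, -0.55 to 0.16 for Rps9 and -0.44 to 2.11 for Rpsa. WT replicate 3, at 27909 gene reads, limits every comparison with WT.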
